A study of Mus musculus with 6 samples.

Results

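CCT, also called TRiC, is the ring-shaped chaperonin of the cytosol that folds actin, tubulin and other proteins, and 8 of the 10 genes described here, *Tcp1*, *Cct2*, *Cct3*, *Cct4*, *Cct5*, *Cct6a*, *Cct7* and *Cct8*, encode its subunits. The other two, *Hsp90ab1* and *Hspa8*, encode the constitutive cytosolic HSP90 and the constitutive cytosolic HSP70. The 10 genes were chosen by name in the symbol column of a TPM table with 55364 genes (TPM is a read count divided by gene length and scaled to the same total in each library). RNA-seq was performed on morulae, a cleavage stage before the blastocyst, of the strain cross BDF1 x BDF1 that had received siRNA by injection as zygotes and had been cultured in KSOM. Total RNA of 3 control knockdown (control KD) libraries and 3 *Yy1* knockdown (*Yy1* KD) libraries, each from a pool of morulae, was prepared with the SMART-Seq stranded kit. By the labels the groups differed in the siRNA alone, and the single question of the design was which transcripts differed between them. YY1 is a zinc finger transcription factor that binds promoters and enhancers.

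In cells, each CCT ring holds a single copy of each subunit, and a newly made client often passes from HSP70 or from prefoldin, a smaller hexameric chaperone that captures unfolded actin and tubulin, into the CCT chamber. HSP90 acts later, on clients such as kinases and receptors, together with a large set of cochaperones. Genes of this kind are read by almost all dividing cells.

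The knockdown was seen in each library. *Yy1* stood at 96.0, 100.2 and 89.8 TPM across control KD libraries and at 8.73, 8.90 and 8.32 TPM after *Yy1* KD, which was 9.07% of the control mean (limma log2 fold change -3.32, SE 0.09, Benjamini-Hochberg adjusted p = 6.71e-05). From the low TPM values, 11793509 to 24417789 read pairs per library were recovered. The values behind the 10 genes rested on 3213 to 268688 pairs. Counting error, taking pairs as independent, was at most 1.76% of any value, and pairs amplified from the same molecule would raise it. Of the 55364 genes, 17353 reached 1 TPM in at least 3 of the 6 libraries and were tested with limma on log2(TPM + 1), the 10 genes among them. Over the tested genes the log2 fold changes had a median of -0.02. Marker genes of cumulus and granulosa cells, which surround the oocyte, summed to 0.610 to 1.06 TPM in control KD and to 0.822 to 2.42 TPM after *Yy1* KD, with 5 of the 10 at 0 in all libraries. Trophectoderm markers summed to 727 to 789 TPM in control KD against 536 to 729 TPM after *Yy1* KD, 1 of 6 tested (*Tfap2c*) was called, with 4 of the 6 log2 fold changes below 0, and the part of cell composition in the results that follow was not tested. Inner cell mass markers (7 tested) and oocyte markers (7 tested) had 0 calls in limma, with 2 and 0 at an unadjusted p under 0.05. Limma-voom on the recovered read pairs called 1 and 0. Of the inner cell mass markers, 5 of 7 log2 fold changes were below 0. The 2 under 0.05 were *Sox2* (-0.86, SE 0.25) and *Fgf4* (-1.06, SE 0.25), both lower in *Yy1* KD without overlap. The limma-voom call was *Fgf4*. In pooled embryos, fewer cells of a type and less RNA per cell cannot be told apart. Since the labels do not say whether the pools came from separate collections, the p-values measure the spread between these libraries, which may be in part technical.

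The genes lay on 9 chromosomes of GRCm38. *Cct4* spanned chr11:22990519-23003780 on the plus strand, and *Tcp1* (chr17:12915701-12925067, plus) and *Hsp90ab1* (chr17:45567775-45573271, minus) shared a chromosome. A few stretches from promoters are shown because they hold the letters of sites that heat shock factor or NF-Y, the factor of the CCAAT box, are known to bind. They are taken from RefSeq promoter windows on GRCm38.p6, each running from 250 bases before to 50 bases after an annotated start, and are written 5′ to 3′ on the strand of the gene, with the matched letters in capitals.
*Cct5*, heat shock element: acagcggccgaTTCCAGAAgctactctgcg
*Cct6a*, heat shock element: gcgtaagacttTTCGAGAAgaccccgcaga
*Tcp1*, CCAAT box: tccctggctcaCCAATcaccgcagacg
*Cct3*, CCAAT box read on the other strand: tgagtttggtgATTGGcggcacttcag
*Cct7*, CCAAT box read on the other strand: accgggcgctgATTGGccaaaactctt
The *Cct5* stretch (chr15:31601862-31601891, minus strand) held its match 34 bases before the start, and the *Cct6a* stretch (chr5:129787369-129787398, plus strand) held it from base 25 after the start. The CCAAT stretches lie at chr17:12916186-12916212 (*Tcp1*), chr3:88297091-88297117 (*Cct3*) and chr6:85451399-85451425 (*Cct7*), all plus strand. Entries were found for 7 of the 10 genes, in 9 windows. *Cct4*, *Hsp90ab1* and *Hspa8* had none. The element TTCNNGAA, which reads the same on both strands, was present in 2 of the 7 genes and in 8.52% of all 32851 promoters. CCAAT, searched on both strands, was present in 4 of the 7 (*Tcp1*, *Cct3*, *Cct6a* and *Cct7*, with 3 matches in *Cct7*) and in 37.4% of all promoters. The letters AANATGGC and ATGGCGGC, 2 overlapping forms of the YY1 site searched on both strands, were found in 0 of the 7 genes, against 6.05% and 2.24% of all promoters. GC content of the windows lay between 47.3% and 67.7%, and all windows but one of *Cct5* were above the median of 52.7% over all promoters.

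In control KD the partners were far above the chaperonin. On the TPM scale, *Hsp90ab1* was at 7961 ± 180.0 TPM (SD, n = 3) and ranked 9 among the listed genes by mean, and *Hspa8* was at 5588 ± 635 TPM (SD, n = 3) and ranked 17. Together they took 1.26% to 1.40% of each control KD library, against 0.304% to 0.309% for all CCT subunits summed. Among the subunits the order of mean TPM was *Cct5* (772 ± 13.1), *Cct2* (639 ± 15.7), *Tcp1* (435 ± 26.2), *Cct6a* (324 ± 8.96), *Cct8* (299.7 ± 9.08), *Cct7* (285 ± 7.47), *Cct3* (161 ± 3.45) and *Cct4* (152 ± 10.9), each as mean ± SD over 3 libraries. The ranges of *Cct8* and *Cct7* overlapped, as did those of *Cct3* and *Cct4*, and the other neighbours in the order did not.

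**Figure D1:**
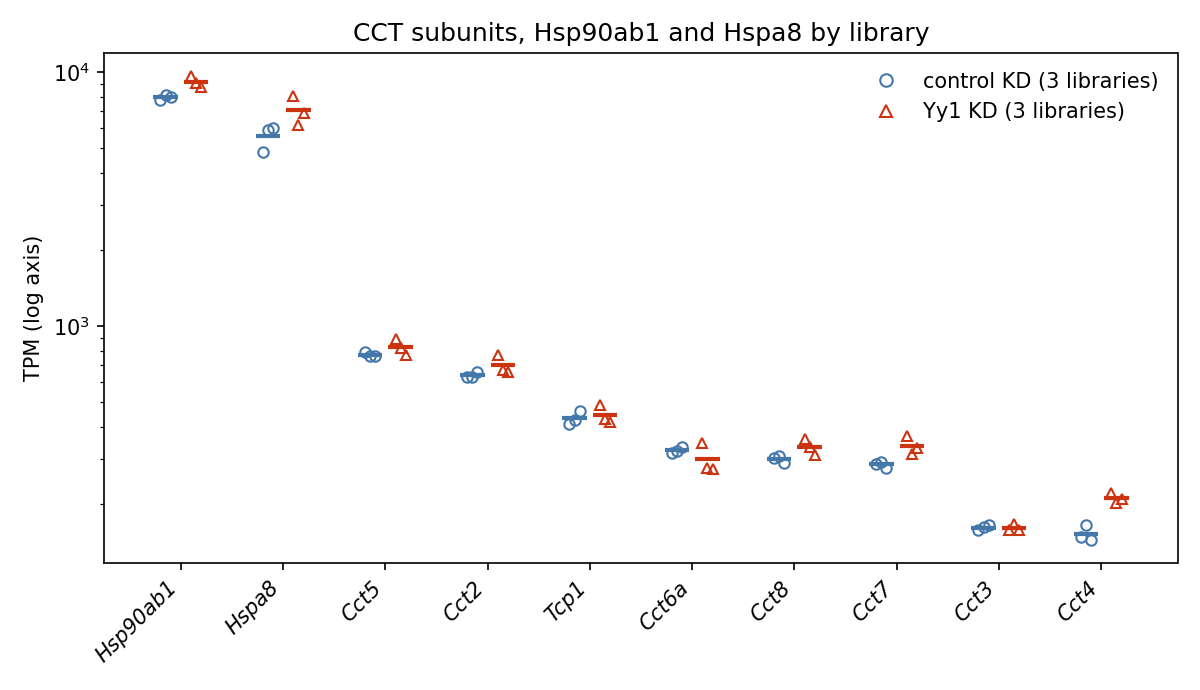
TPM (log axis) of the 10 genes in each library, with circles for control KD, triangles for *Yy1* KD and a bar at the mean of each group of 3. *Hsp90ab1* and *Hspa8* sit at 4858 TPM or higher in each library and the CCT subunits between 144 and 887 TPM, and *Cct4* shows the widest gap between the groups relative to its spread.

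Part of this order came with the length scale. The deposited TPM divides by the length of all annotated exons of a gene, which for *Cct3* (6370 nt) and *Cct7* (6778 nt) was much longer than one reference transcript (1977 and 2441 nt). With each gene rescaled to that transcript, *Cct5* remained highest among the subunits (1152 ± 19.6 rescaled TPM, SD, n = 3) and *Cct4* lowest (257 ± 18.4), but *Cct7* moved up to 792 ± 20.8 and *Cct3* to 519 ± 11.1, and *Tcp1* (894 ± 53.9) overlapped with *Cct2* (834 ± 20.5). The highest subunit was 4.97-fold above the lowest in TPM and 3.89-fold above it on the rescaled level. *Hspa8* and *Hsp90ab1* overlapped after rescaling. This choice moves levels between genes and leaves each gene's fold change between groups as it is.

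**Figure D2:**
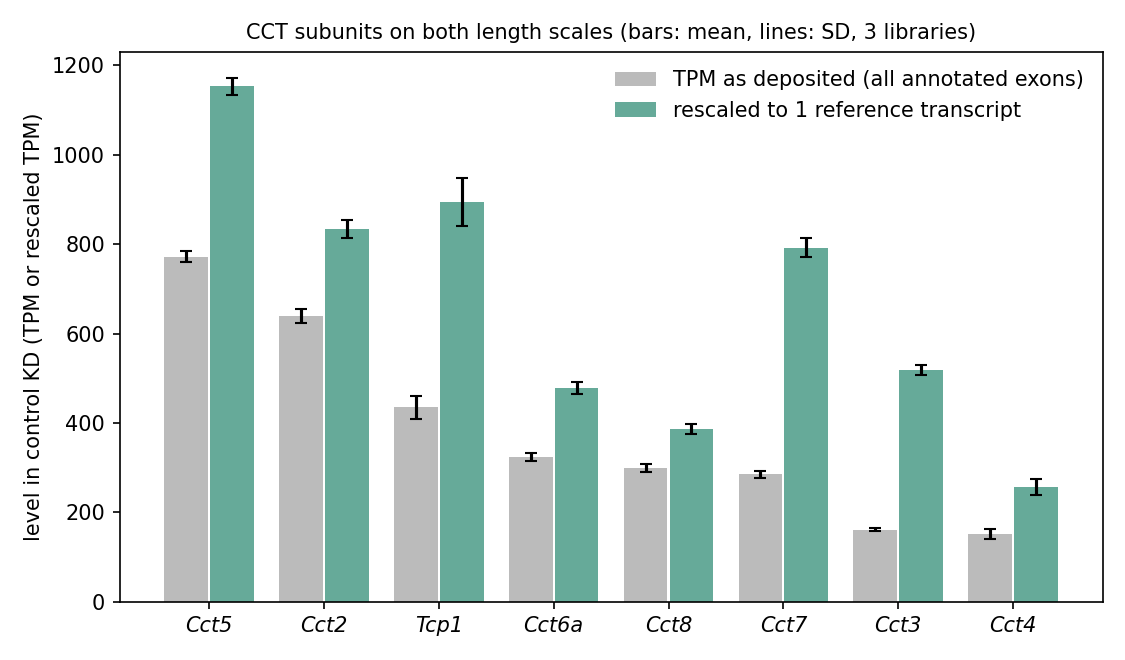
Levels of the 8 CCT subunits in control KD (bars, mean of 3 libraries; lines, SD), as deposited TPM in grey and rescaled from the length of all annotated exons to that of one reference transcript in green. *Cct5* is highest and *Cct4* lowest on both scales, and *Cct7* moves from 285 to 792.

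*Cct4*, which encodes the delta subunit, was the only one of the 10 genes that passed the test. It stood at 148, 164 and 144 TPM under control KD and at 221, 200.3 and 209 TPM after *Yy1* KD. All *Yy1* KD libraries lay above all control KD libraries, with a gap wider than the range of either group. The log2 fold change was 0.46 (SE 0.08), that is 1.38-fold with a 95% interval of 1.21 to 1.57 (limma, Benjamini-Hochberg adjusted p = 0.027), and its rank by mean moved from 1027 to 710. Of all genes tested, 6.11% were called and 1.92% were called higher in *Yy1* KD, against 4.2% lower, so that 1 of 10 is near the share of all genes. With any one library left out, the log2 fold change stayed between 0.43 and 0.52 and the gene was not called (limma adjusted p between 0.0523 and 0.0948). The call was also lost when genes with low values were kept in the test (limma adjusted p = 0.0611). No other annotated gene overlaps the exons of *Cct4*.

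The other 7 subunits did not pass the test in limma on TPM, and limma-voom on the recovered read pairs called only *Cct7* among them. Limma-voom called more genes in all, 2086 against 1061 by limma on TPM. *Cct7*, the eta subunit, came nearest and was at 286, 292 and 277 TPM across control KD libraries and at 369, 314 and 331 TPM after *Yy1* KD. The groups did not overlap, and the log2 fold change was 0.24 (SE 0.08, limma adjusted p = 0.128). *Cct2*, the beta subunit, was at 628, 632 and 657 TPM against 772, 674 and 660.3 TPM, a difference of 0.13 on the log2 scale (SE 0.08). Here a single library, *Yy1* KD replicate 1, stood apart, and the other two lay just above the highest control KD value. *Cct8*, the theta subunit, was at 303, 307 and 289.5 TPM in control KD against 358, 333 and 310.1 TPM after *Yy1* KD (log2 fold change 0.15, SE 0.08), again without overlap and again with replicate 1 highest.

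In the remaining subunits the groups overlapped. *Cct5*, the epsilon subunit and the most abundant, was at 787, 764 and 765 TPM under control KD and at 887, 817 and 768 TPM after *Yy1* KD (log2 fold change 0.09, SE 0.08). *Tcp1*, the alpha subunit, was at 413, 427 and 464 TPM against 488, 432 and 419.9 TPM, with a log2 fold change of 0.04 (SE 0.09) whose sign turned to -0.03 without *Yy1* KD replicate 1. *Cct3*, the gamma subunit, held the narrowest range, from 157 to 164 TPM in control KD and from 157 to 166 TPM after *Yy1* KD. Its log2 fold change was -0.01 (SE 0.06), with an interval of -0.16 to 0.14, and its sign turned under other scalings (0.03 under median-ratio scaling).

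*Cct6a*, the zeta subunit, was at 316, 322 and 334 TPM across control KD libraries and at 345, 276 and 274 TPM after *Yy1* KD. *Yy1* KD replicate 1 was the highest of all 6 values and the other two were the lowest, so the log2 fold change of -0.13 (SE 0.10) describes libraries that differ among themselves. Over the 7 subunits other than *Cct4*, the 95% intervals of the log2 fold change reached from -0.37 to 0.43, which leaves room for changes of that size in single genes.

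*Hsp90ab1* was at 7788, 8147 and 7949 TPM in control KD against 9624.5, 9042 and 8704 TPM after *Yy1* KD. The groups did not overlap, and the log2 fold change of 0.20 (SE 0.09, interval -0.02 to 0.41) did not pass the test (limma adjusted p = 0.257). Limma-voom on the recovered read pairs called *Hsp90ab1*. Its inducible relative *Hsp90aa1* had the same size of log2 fold change, 0.20 (SE 0.13), with overlapping groups, and the ratio of *Hsp90ab1* to *Hsp90aa1* lay between 0.70 and 0.84 in all libraries.

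*Hspa8* was at 4858, 5893 and 6012 TPM under control KD and at 8068, 6203 and 6894 TPM after *Yy1* KD. All *Yy1* KD values were above all control KD values, by the widest margin in replicate 1. The log2 fold change of 0.33 (SE 0.14, interval 0.01 to 0.66) did not pass the test after adjustment (limma adjusted p = 0.203), while limma-voom called *Hspa8*. Copies were looked for by sliding a 150-nt window along one transcript of each gene and searching it in the annotated transcripts of all other genes. Of the *Hspa8* windows, 55.4% were found unchanged in 4 processed pseudogenes, whereas no window of the other 9 genes was found in another gene. The *Hspa8* value therefore depends on how pairs from these windows were placed or left out. One copy, *Gm15459*, had a mean of 4135 ± 287 TPM under control KD and 3589.7 ± 964 TPM under *Yy1* KD (SD, n = 3 each), with overlapping groups. The copies held 16.1% to 30.1% of the counted pairs on *Hspa8* and its copies, and pairs left uncounted are in neither. Summed with them, the pairs were 1.24%, 1.41% and 1.40% of the libraries of control KD and 1.72%, 1.54% and 1.49% of those of *Yy1* KD, still without overlap, and the log2 ratio of the group means was 0.23 in place of 0.35 for *Hspa8* alone.

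Across the 10 genes, log2 fold changes were above 0 in 8 and below 0 in 2, with a median of 0.14 (0.11 over the 8 CCT subunits). In 6 genes all *Yy1* KD values lay above all control KD values, in 0 the reverse held, and in 4 the groups overlapped. Among all genes tested, 12.9% had no overlap with *Yy1* KD higher and 17.2% had none with *Yy1* KD lower. The 10 genes share libraries, so that a single library moves them jointly, and *Yy1* KD replicate 1 was the highest library in 9 of the 10. For each of the 6 genes the two-sided exact permutation p over the libraries was 0.1, the smallest that 3 against 3 allows. For the 4 that overlapped it was 0.6 (*Tcp1*), 0.8 (*Cct3*), 0.2 (*Cct5*) and 0.4 (*Cct6a*) by the same exact permutation test.

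**Figure D3:**
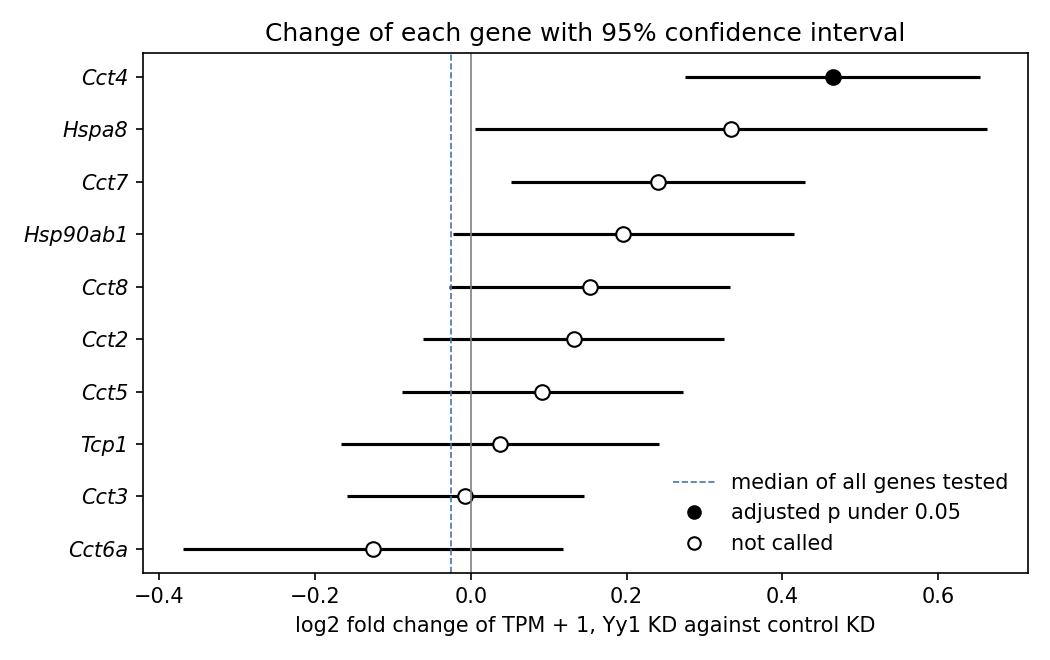
Log2 fold change of TPM + 1 (x axis) of each of the 10 genes with its 95% interval from limma, a filled point for the gene called and open points for the rest. The dashed line is the median of all genes tested (-0.02), and *Cct4* at 0.46 is the only filled point.

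The summed TPM of the subunits was 3038, 3069.9 and 3094 in control KD and 3597, 3213 and 3128 in *Yy1* KD. The means were 3067 ± 28.1 and 3313 ± 249.8 TPM (SD, n = 3 each), a ratio of 1.08. The control KD libraries lay close to each other, and *Yy1* KD replicate 1 stood above all other libraries. Without it the ratio was 1.034. Within that sum, the share of *Cct4* was 4.65% to 5.35% in control KD and 6.14% to 6.67% in *Yy1* KD. The share of *Cct7* was 8.96% to 9.51% against 9.76% to 10.6%. Shares without overlap in the other direction were those of *Cct6a* (10.4% to 10.8% against 8.61% to 9.59%) and *Tcp1*. The *Tcp1* ranges nearly touched (13.60% to 14.99% against 13.42% to 13.57%). Shares are parts of a fixed whole, so a higher share of some subunits lowers those of others. In TPM, the groups overlapped for both *Cct6a* and *Tcp1*. The shares of *Cct2*, *Cct3*, *Cct5* and *Cct8* in the sum overlapped between groups. In TPM, *Cct4* lay above *Cct3* in each *Yy1* KD library (200.3 to 221 TPM against 157 to 166 TPM), while both ranges overlapped in control KD. Rescaled to one reference transcript, *Cct4* was below *Cct3* in both groups, at 339 to 373 against 506 to 536 rescaled TPM after *Yy1* KD.

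**Figure D4:**
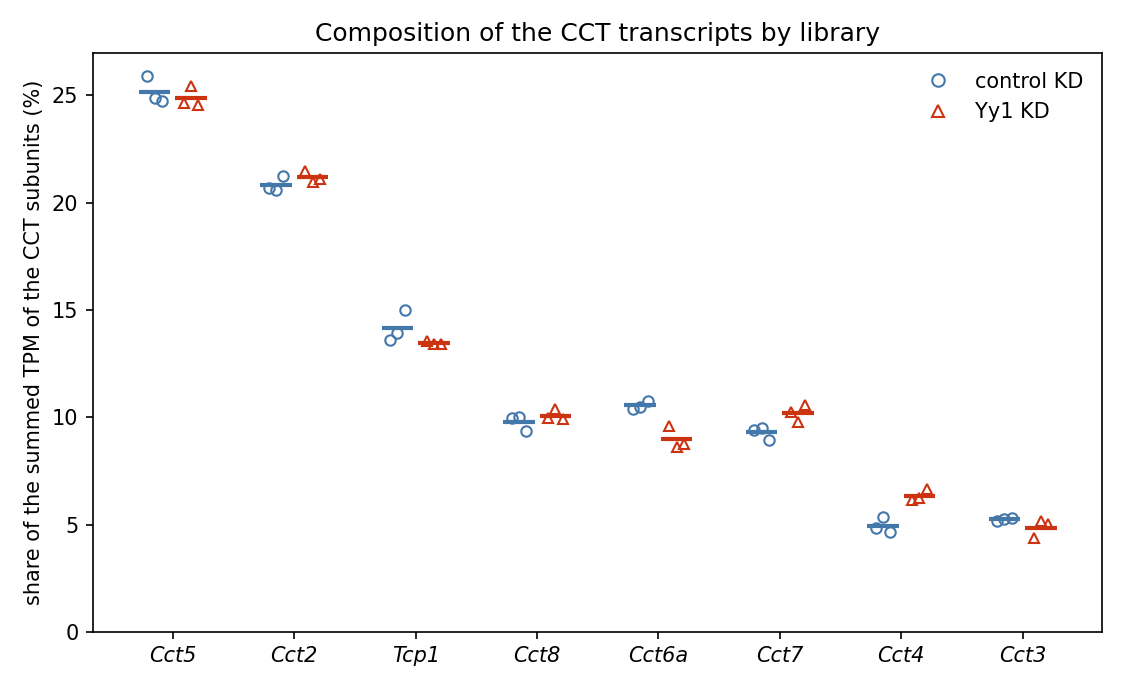
Share of each CCT subunit in the summed TPM of the 8 subunits (y axis, %), with circles for control KD, triangles for *Yy1* KD and a bar at the group mean. The mean *Cct4* share is 4.96% in control KD and 6.35% in *Yy1* KD and the mean *Cct6a* share 10.6% and 8.98%, both without overlap, while *Cct5*, near 25%, overlaps between groups.

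Annotated neighbours share exonic bases with 5 of the 10 genes, and pairs on shared bases were divided between both genes without regard to strand. *Tcp1* shares 141 nt with *Mrpl18* and 571 nt with *Acat3*, *Cct6a* shares 452 nt with *Psph*, *Cct7* shares 214 nt with *Pradc1* and *Cct8* shares 192 nt with *Usp16*. For *Tcp1*, *Cct6a* and *Hspa8*, snoRNA genes also lie within the pooled exons of all annotated transcripts. Whether they lie in exons of the reference transcript was not looked at. None of these 10 neighbours passed the test in limma, 0 had an unadjusted p under 0.05, and limma-voom called 0. *Pradc1*, for example, was at 10.1 to 16.7 TPM across control KD libraries and at 11.5 to 17.2 TPM after *Yy1* KD, far below *Cct7*. *Mrpl18*, the most abundant of these neighbours, was nearer to *Tcp1*. It was at 178 to 211 TPM in control KD and 204.6 to 273 TPM after *Yy1* KD (log2 fold change 0.26, SE 0.12), with overlapping groups.

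Genes with the pattern most like the mean of the CCT subunits over the 6 libraries were *Rpl12*, *Paics*, *Kcmf1*, *Gspt1* and *Hars*. Their root mean square difference in centred log2(TPM + 1) was 0.0193 to 0.0281, against a median of 0.177 over 4614 candidate genes. That gap was set by choosing the smallest values. *Cct2* was the subunit nearest to the CCT mean (0.0256) and *Cct4*, at 0.181, lay as far from it as a typical gene. The subunits are part of that mean and the candidates are not. This is a description over 6 libraries whose largest feature is the height of *Yy1* KD replicate 1.

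Around the chaperonin, 139 other genes in 14 lists of chaperones, cofactors and clients were examined. Of the 131 tested, 15 were called, 7 higher and 8 lower in *Yy1* KD, which is 11.5% against 6.11% of all genes tested. The median log2 fold change of the 131 was -0.00. The lists were chosen with earlier results of these data known, so these shares are not an independent comparison. The part of expression level and precision in them was not tested. Prefoldin, which hands actin and tubulin to CCT, had 2 of its 6 subunits called, both lower. *Vbp1*, prefoldin subunit 3, fell from 92.6, 88.4 and 83.7 TPM to 45.6, 43.7 and 31.8 TPM (log2 fold change -1.13, SE 0.14, limma adjusted p = 0.0127). *Pfdn1* fell from 89.5, 98.9 and 104 TPM to 56.0, 58.7 and 63.5 TPM (log2 fold change -0.70, SE 0.09, limma adjusted p = 0.0127). In both genes the groups were well apart, and each was called in 3 of the 6 fits that left out a library. The other 4 subunits did not pass in limma on TPM, and their log2 fold changes had the opposite sign, among them *Pfdn6* at 0.29 (SE 0.09) and *Pfdn5* at 0.42 (SE 0.14), so that the median of the list was 0.15. Limma-voom called *Pfdn5* higher, beside *Vbp1* and *Pfdn1*.

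The *Vbp1* promoter is shown because, among the list genes called lower whose RefSeq window was searched, only *Vbp1* held a YY1 motif match.
*Vbp1*, YY1 motif: ggtgctttctgAAGATGGCggc
The stretch lies at chrX:75514325-75514346 on the plus strand of GRCm38.p6, and the match starts at base 40 after the start. AANATGGC was found in 1 of 6 genes called lower, 0 of 6 called higher and 9 of 97 (9.28%) not called, among the list genes searched. The search of list genes left out a chromosome, and *Pfdn1* and *Grpel2*, also called lower, were not searched.

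Other cofactors that act on CCT showed few calls. In the phosducin-like group, which binds CCT and helps load or release clients, 0 of 3 tested genes were called by limma, 2 had an unadjusted p under 0.05, and limma-voom called *Txndc9* alone, which was at 0.30 (SE 0.08, limma adjusted p = 0.0795) on the log2 scale. In the R2TP and prefoldin-like complex, which assembles large complexes with HSP90, 1 of 8 was called. *Ruvbl1*, an AAA+ ATPase, rose from 148, 153 and 141 TPM to 206, 202 and 189.6 TPM (log2 fold change 0.43, SE 0.07, limma adjusted p = 0.0233), without overlap. Its partner *Ruvbl2* overlapped (-0.06, SE 0.07). Of the *Ruvbl1* windows, 20.8% were found unchanged in a pseudogene, so its value depends on how such pairs were placed or left out. Of the tubulin folding cofactors, which receive tubulin after CCT, 0 of 6 were called by limma, with 1 at an unadjusted p under 0.05 and 1 called by limma-voom, in both cases *Tbcc* (log2 fold change -0.61, SE 0.14, limma adjusted p = 0.0568). Their summed TPM was 160.4 to 177 in control KD and 123 to 135 in *Yy1* KD. The lower sum rested mainly on *Tbcc* and *Tbca* (log2 fold change -0.49, SE 0.23, limma adjusted p = 0.261, groups overlapping). In the others the log2 fold changes lay between -0.002 and 0.05, and the list median was 0.003.

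Among known clients of CCT, 4 of 20 tested were called, and the median log2 fold change was -0.19. *Actg1*, cytoplasmic gamma actin, fell from 959, 1159.8 and 1216 TPM to 821, 551 and 626 TPM (log2 fold change -0.75, SE 0.16, limma adjusted p = 0.0475). *Tubb5*, a beta tubulin, fell from 74.9, 71.7 and 83.2 TPM to 50.6, 33.9 and 44.2 TPM (log2 fold change -0.84, SE 0.15, limma adjusted p = 0.0304). *Tuba1b*, an alpha tubulin, fell from 29.0, 26.8 and 25.5 TPM to 17.4, 14.9 and 20.2 TPM (log2 fold change -0.61, SE 0.13, limma adjusted p = 0.0468). In all 3 the groups did not overlap, and *Actg1* and *Tuba1b* have identical windows in other genes, most of them processed pseudogenes (43.5% and 57.9% of windows). *Cdc20*, the activator of the anaphase-promoting complex, moved the other way, from 222, 217 and 187 TPM to 284, 297 and 324 TPM (log2 fold change 0.53, SE 0.09, limma adjusted p = 0.0281). *Actb*, beta actin, overlapped and did not pass (-0.50, SE 0.16, limma adjusted p = 0.117). *Tubb4b*, the most abundant tubulin of the list (mean 477 TPM), also overlapped (0.09, SE 0.09), as did *Tuba1c* (-0.17, SE 0.18). These also have identical windows in other genes (16.8% and 46.7%). Of the 20 clients tested, 7 log2 fold changes were above 0 and 13 below. Of the clients, 0 were called by limma when genes with low values were kept in the test and 7 were called by limma-voom. Over all genes those settings called 347 and 2086, against 1061 in the main fit. *Actg1* also lost its call under median-ratio scaling (limma adjusted p = 0.0566) and *Tuba1b* under quantile scaling (limma adjusted p = 0.0603).

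Of the HSP90 family other than *Hsp90ab1*, 0 of 3 were called by limma and 0 had an unadjusted p under 0.05, while limma-voom called *Hsp90aa1*. *Hsp90b1* of the endoplasmic reticulum and *Trap1* of mitochondria had log2 fold changes of -0.44 (SE 0.32) and -0.14 (SE 0.09). *Hsp90b1* was at 105, 97.0 and 233 TPM under control KD, and without control KD replicate 3 its log2 fold change was -0.04. Of 19 HSP90 cochaperones 4 were called, 2 in each direction. *Ptges3*, the cochaperone p23, rose with a log2 fold change of 0.39 (SE 0.07, limma adjusted p = 0.0339). *Ppp5c*, a phosphatase that acts on HSP90 complexes, fell by 0.82 on the log2 scale (SE 0.13, limma adjusted p = 0.021) and *Nudc* by 0.41 (SE 0.07, limma adjusted p = 0.0297). *Stip1*, which bridges HSP70 and HSP90 and was the most abundant cochaperone in the list, was at 1898 to 2083 TPM after *Yy1* KD and 2005 to 2059 TPM in control KD.

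Beside *Hspa8*, 1 of the 10 tested genes of the HSP70 and HSP110 family was called. *Hspa2* rose from 32.5, 25.5 and 25.5 TPM to 59.2, 71.5 and 55.5 TPM (log2 fold change 1.13, SE 0.14, limma adjusted p = 0.0126), without overlap. The stress-inducible *Hspa1b* was at 16.8 to 20.2 TPM in control KD against 21.3 to 27.5 TPM after *Yy1* KD (0.41, SE 0.13, limma adjusted p = 0.127), and *Hspa1a* at 1.81 to 4.09 TPM and 4.32 to 5.46 TPM (0.63, SE 0.26). Neither passed, and both share identical windows with each other. *Hspa5* and *Hspa9*, of the endoplasmic reticulum and mitochondria, overlapped (-0.31, SE 0.34, and 0.05, SE 0.07). *Hspa5* was at 131, 105 and 287 TPM under control KD, and its log2 fold change turned to 0.12 without control KD replicate 3. *Hsf1*, the main activator of heat shock genes, was at 12.2 to 12.9 TPM under control KD and at 6.45 to 9.10 TPM after *Yy1* KD, without overlap, and its log2 fold change of -0.64 (SE 0.15) did not pass (limma adjusted p = 0.0584).

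In the remaining lists, calls were single genes. *Grpel2*, a mitochondrial exchange factor, fell by 0.87 on the log2 scale (SE 0.17, limma adjusted p = 0.0376), *Dnaja2*, a J-domain cochaperone of *Hspa8*, rose by 0.31 (SE 0.06, limma adjusted p = 0.0448) from 248 to 268 TPM to 309 to 322 TPM, and *Naca*, a factor that binds chains as they leave the ribosome, rose by 0.41 (SE 0.08, limma adjusted p = 0.0358). Mitochondrial chaperones, heat shock factors with small heat shock proteins, and CCT relatives had 0 calls in limma of 7, 7 and 3 tested, with 2, 1 and 0 at an unadjusted p under 0.05 and 1 (*Clpx*), 1 (*Hsf1*) and 0 called by limma-voom. *Hspd1* and *Hspe1*, the mitochondrial chaperonin and its lid, were at -0.17 (SE 0.10) and -0.33 (SE 0.08) and did not pass. The call of *Hspa2* held in 4 of the 6 fits that left out a library, that of *Ppp5c* in 2, those of *Ruvbl1*, *Actg1*, *Tubb5* and *Grpel2* in 1, and those of *Tuba1b*, *Cdc20*, *Ptges3*, *Nudc*, *Dnaja2* and *Naca* in 0 of 6. Identical 150-nt windows in other genes were also found for *Hsp90aa1* (36.2%), *Ptges3* (17.9%), *Nudc* (19.4%) and *Naca* (52.7%). The effect of how such pairs were placed or left out was not tested.

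**Figure D5:**
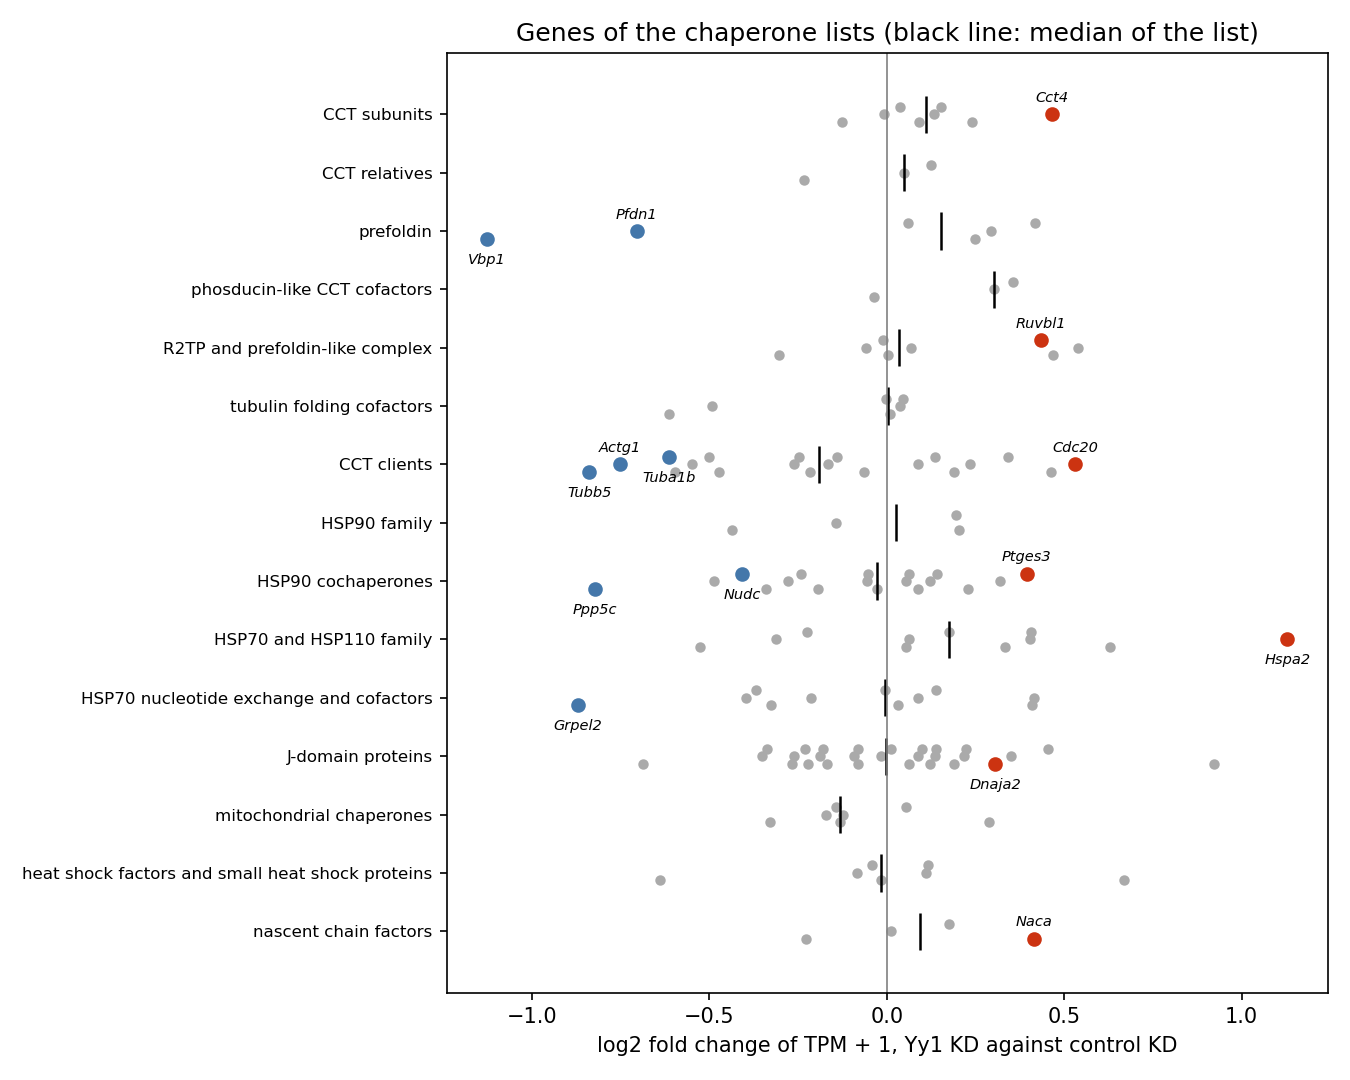
Log2 fold change of TPM + 1 (x axis) of tested genes in the 15 chaperone lists, with red and blue points for genes called higher and lower, grey points for genes not called and a black line at the median of each list. Among the CCT subunits only *Cct4* is coloured, while prefoldin has *Vbp1* and *Pfdn1* in blue at -1.13 and -0.70.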

How the data were processed

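RNA-seq was performed on 3 control KD and 3 *Yy1* KD libraries, grouped and numbered by their labels. Per the methods and the submitters' processing notes, the authors trimmed reads with Trim Galore (version 0.6.7), aligned them to mm10 with HISAT2 (version 2.2.1), removed ribosomal RNA reads with bedtools, assigned pairs to GENCODE vM25 genes with featureCounts (version 2.0.1; pairs on several genes were divided among them and strand was ignored) and deposited TPM per gene and library. Ignoring strand lets antisense neighbours share reads. The paper gives an option to count multi-mapped pairs for repeats but not for genes. Multi-mapped pairs of genes with copies would then be uncounted.

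The 17353 genes that reached 1 TPM in 3 or more of the 6 libraries were tested with limma (version 3.58.1, R 4.3.3; variance trend, no block) on log2(TPM + 1), since TPM is not suited to a count model. Adding 1 understates changes of low genes. Two-sided p-values were adjusted by Benjamini-Hochberg over all 17353 genes and called under 0.05. The script was tested on simulated data first. Exon lengths, overlaps and copies came from GENCODE vM21 (GRCm38), an earlier release than the authors used, and promoters from RefSeq. With those lengths, 89.0% to 90.9% of the low values of genes without overlap came out as whole pairs (within 0.02), which gave the depth per library.

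The members and lists were chosen with earlier results of these data known. Named were the 10 genes and *Yy1*, each list gene called (1 is not reported here), the 2 most abundant genes of a list and set paralogs and clients. *Clpx* and the genes that overlap a member were named after their values were seen. Genes of like pattern were the 5 nearest to the mean CCT profile among 4614 genes averaging 20 TPM or more. Alternatives were a pseudocount of 0.1, no filter, a floor of 5 on mean TPM, median-ratio and quantile scaling, a replicate block, each library left out, limma-voom on recovered pairs and, chosen after seeing the data, genes of at least 200 nt only.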

Additional observations from a re-analysis of the deposited data

How the results depend on the processing

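Of the 10 genes, 1 was called, and 0 were called without the filter on low values, 0 with the replicate block, 0 with any one library left out, and 4 by limma-voom on recovered pairs (*Cct4*, *Cct7*, *Hsp90ab1* and *Hspa8*). Over all genes 1061 were called, against 347 without the filter, 287 with the replicate block, 2086 by limma-voom and 73 to 412 with a library left out. Among the pathway genes 15 were called, against 5, 4 and 27 in the same order, and 0 to 8 with a library left out. Leaving out a library also leaves fewer samples, and the cause of the other shifts was not tested. Deviations of same-numbered libraries from their group means correlated at -0.00388, 0.0319 and 0.0747 over 17353 genes, and 3 of 6 libraries correlated best with their own number. The labels do not say whether same-numbered libraries share a collection or batch, and with so few libraries these values cannot tell.

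The sign of the log2 fold change turned for *Tcp1* (-0.028 without *Yy1* KD replicate 1, range -0.028 to 0.085 with a library left out) and for *Cct3* (0.032 under median-ratio scaling, 0.027 under quantile scaling, 0.0025 by limma-voom, and -0.035 to 0.0067 with a library left out). The ratio of summed CCT TPM, 1.08, was 1.11 under median-ratio scaling and between 1.034 and 1.11 with a library left out. Of the 140 member values under alternatives, 122 kept direction and side of the threshold. With genes of at least 200 nt only, 1435 genes and 21 pathway genes were called, and *Cct4* was at 0.44 (limma adjusted p = 0.0169). Counting error of the members, taking pairs as independent, was at most 1.76% of a value. The spread between control KD libraries was 1.70% to 11.4% (coefficient of variation).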
